A study of Homo sapiens with 4 samples.

Results

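The genes described here are the collagen chain genes, taken as every gene whose symbol is COL, a number, A and a number. Of the 17894 genes listed in each library, 44 met this rule, and 27 of them averaged 1 FPKM or more across the 4 libraries (FPKM being the fragments on a gene, divided by transcript length and by the library's mapped fragments). H1, a human embryonic stem cell line, was taken towards blood on mAGM-S3, a mouse stromal cell line, and human cells were sorted as TRA-1-85+ at day 2. The series holds 1 library of wild type control cells, 1 library of wild type cells that had R-spondin2 (20 ng/mL) in their medium for 1 day, and 1 library from each of 2 LGR4-/- clones that were not treated. R-spondin2 is a secreted protein that strengthens WNT signaling, and LGR4 is a receptor for it. How the LGR4-/- clones were made is not given in the sources used here, and each clone is a separate line, so that the spread between them holds clonal differences as well.

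Collagens are proteins of the extracellular matrix built from chains that wind into a triple helix inside the cell. Fibrillar collagens, such as types I, III and V, make banded fibers. Type IV makes the sheet of the basement membrane, FACIT collagens (such as types IX and XIV) sit on the surface of fibers, type VI makes beaded filaments, multiplexins carry a helix with many interruptions, and transmembrane collagens stay anchored in the cell surface. Many types need chains from different genes in the same helix. Mesoderm forming from pluripotent cells lays down matrix as cells leave an epithelial layer, and collagens are made by many other cell types too.

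Implied depth was alike in the 4 libraries, at 8700000 to 8920000 fragments, estimated from the steps of low FPKM values. LGR4 was listed at 21.77 FPKM in control, 24.26 with R-spondin2, 7.40 in clone 1 and 13.95 in clone 2, so its RNA was lower in the libraries labelled LGR4-/- but was still present. Mesoderm markers as a list summed to 1069.77 FPKM in control, 1397.64 with R-spondin2, 378.05 in clone 1 and 589.3 in clone 2. Of these genes 7 of 7 were lower in both clones, against 35.5% of the 12697 genes that averaged 1 FPKM or more. In clone 2 the gene T (66.53 FPKM, 70.3 in control) and KDR (32.87 FPKM, 34.4 in control) were only slightly lower. Most of the control sum came from MIXL1 (376.64 FPKM) and APLNR (362.46 FPKM), so the sum follows these genes. Pluripotent markers summed to 1322.42, 1082.5, 2106.11 and 1967.61 FPKM in the same order of libraries, with 6 of 6 higher in both clones (42.5% of all genes). Endoderm markers summed to 238.23, 299.19, 84.17 and 116.2 FPKM. Of the 4 past the filter, 3 were lower (35.5% of all genes) and 1, FOXA2, was higher (42.5%) in both clones. The part of these markers in the collagen differences below was not tested, and in bulk RNA fewer cells of a type cannot be told apart from less RNA per cell. Stromal fibroblast markers summed to 77.22, 72.67, 102.76 and 108.93 FPKM, mostly from THY1 and CXCL12, so the sum follows these genes. Whether any of this RNA came from the mouse feeder cells was not tested. Of the 10 stromal fibroblast genes, 5 passed the filter. Of these, THY1 and CXCL12 were higher and LUM, PDGFRB and TWIST2 lower in both clones, against 42.5% and 35.5% of all genes. TWIST2 was almost at the level of control in clone 2 (2.03 against 2.10 FPKM). LUM, which binds collagen fibers, was at 5.49, 9.11, 0.16 and 1.45 FPKM, and PDGFRB was at 4.97, 5.52, 2.86 and 3.08 FPKM. FAP was at 0 in all 4 libraries and DCN was between 0.03 and 0.27 FPKM. POSTN, also below the filter, was at 0.04 FPKM in control, 0.15 with R-spondin2, 0.39 in clone 1 and 0.38 in clone 2.

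5 stretches of promoter are shown for the genes whose differences are described below, from RefSeq on GRCh38.p14. The first lies between the starts of COL4A1 and COL4A2, which run in opposite directions and were both lower in the clones. The next 4 are the 250 bases before a start of COL5A1, COL9A2 and COL23A1, which were at least 2-fold lower in both clones, and of COL9A1, a partner of COL9A2 that was higher. Capitals mark, on either strand, each CCAAT box (searched by those letters), each GC box (searched as GGGCGG) and each TATA box (searched as TATAAA). These starts are those of RefSeq, and for these 4 genes they lie inside the span in GENCODE, the annotation behind the spans given below.
COL4A1 to COL4A2, chr13:110307158-110307283, plus strand: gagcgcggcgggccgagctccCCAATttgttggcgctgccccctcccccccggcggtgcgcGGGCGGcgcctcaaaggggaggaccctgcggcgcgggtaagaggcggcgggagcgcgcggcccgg
COL5A1, chr9:134641553-134641802, plus strand: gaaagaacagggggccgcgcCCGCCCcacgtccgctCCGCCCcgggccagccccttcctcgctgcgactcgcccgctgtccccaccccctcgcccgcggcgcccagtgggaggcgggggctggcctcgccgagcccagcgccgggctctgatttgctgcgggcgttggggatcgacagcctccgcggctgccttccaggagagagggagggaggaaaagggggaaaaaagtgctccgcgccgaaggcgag
COL9A2, chr1:40317287-40317536, minus strand: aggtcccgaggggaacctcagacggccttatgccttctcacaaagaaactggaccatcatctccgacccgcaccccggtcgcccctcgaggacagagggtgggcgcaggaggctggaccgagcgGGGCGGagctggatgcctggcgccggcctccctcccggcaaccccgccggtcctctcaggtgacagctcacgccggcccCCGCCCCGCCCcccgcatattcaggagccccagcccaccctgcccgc
COL23A1, chr5:178590394-178590643, minus strand: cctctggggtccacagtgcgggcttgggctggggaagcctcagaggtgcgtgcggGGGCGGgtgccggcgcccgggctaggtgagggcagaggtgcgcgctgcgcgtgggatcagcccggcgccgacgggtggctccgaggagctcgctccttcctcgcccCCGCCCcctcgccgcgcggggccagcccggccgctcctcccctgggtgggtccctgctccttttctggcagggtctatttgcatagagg
COL9A1, chr6:70283198-70283447, minus strand: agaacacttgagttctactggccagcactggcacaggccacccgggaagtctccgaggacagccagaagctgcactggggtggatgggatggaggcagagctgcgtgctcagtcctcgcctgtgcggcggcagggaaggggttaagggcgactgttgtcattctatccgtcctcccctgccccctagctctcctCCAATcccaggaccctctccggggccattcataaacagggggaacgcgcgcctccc

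The COL9A2 stretch held 3 GC boxes, the COL5A1 and COL23A1 stretches held 2 each, and the COL9A1 stretch held none and 1 CCAAT box. The stretch between COL4A1 and COL4A2 is 126 bases long and held 1 of each. The printed start of COL9A1 lies well inside the gene's span, which ends at chr6:70303083. RefSeq also gives a start of COL9A1 near that end, and the window before it (chr6:70303085-70303334) held no CCAAT, GC or TATA box. Among the 44 windows that RefSeq gives for 32 of the collagen genes, 24 held a GC box, 12 a CCAAT box and 8 a TATA box, against 42.6%, 32.0% and 10.7% of the 35116 windows of all genes, and their median GC content was 64.2% against 58.0%. Letters of the TCF/LEF motif (CTTTGAT or CTTTGAA), which the factors at the end of the WNT pathway bind, were in 2 collagen windows and in 5.94% of all windows. None of the 5 stretches held them. Such a match is only a match of letters in these windows.

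Collagen RNA was carried by few genes. In control cells the 7 highest, COL6A1, COL18A1, COL1A2, COL6A2, COL5A2, COL5A1 and COL1A1, gave 74.14% of the summed collagen FPKM. They gave 76.67% with R-spondin2, 70.72% in clone 1 and 73.06% in clone 2. The sum over all 44 genes was 1054.53 FPKM in control, 1242.36 with R-spondin2, 787.27 in clone 1 and 845.75 in clone 2, or 0.242%, 0.286%, 0.181% and 0.193% of the FPKM of all genes. Both clones thus lay below both wild type libraries. Fibrillar genes made 38.27% of the collagen sum in control, 43.96% with R-spondin2, 28.39% in clone 1 and 32.09% in clone 2. COL5A1 and COL5A2 alone made 17.8%, 21.26%, 5.21% and 8.06%. Without these genes the sums were 866.79, 978.26, 746.25 and 777.58 FPKM, in the same order of libraries as before. The plot of levels shows each gene by library.

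**Figure D1:**
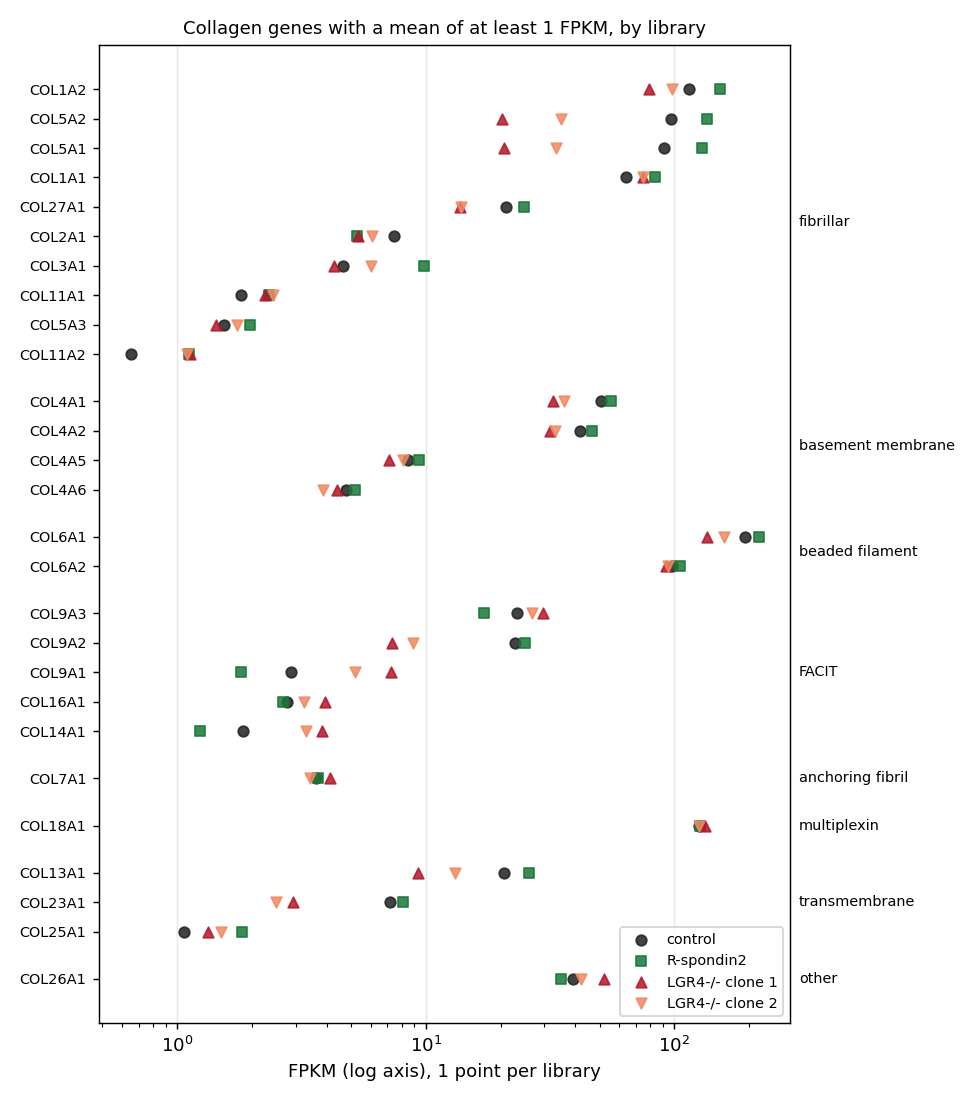
FPKM on a log axis (horizontal) of the 27 collagen genes that passed the filter of 1 FPKM (vertical, grouped by collagen type), with 1 point per library and no error, since control and R-spondin2 are 1 library each. COL6A1 lies highest in all 4 libraries, at 135.45 to 218.93 FPKM, and COL5A1 and COL5A2 show the widest gap between the wild type libraries and the clones.

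To see how collagen genes stood with R-spondin2, levels were compared with control as differences in log2(FPKM + 1), with 1 library in each arm and so with no test. No collagen gene reached 2-fold in either direction, where 0.0473% of the 12697 genes past the filter were at least 2-fold higher and 0.173% were at least 2-fold lower. Of the 27 collagen genes, 21 were higher and 6 were lower, where 47.8% of all genes were higher and 51.9% lower, with a median difference of 0.15 against -0.0083 over all genes. Only COL3A1 was past 1.5-fold, upwards, where 0.536% of all genes were past it upwards and 1.46% downwards. A 95% interval of each ratio from the implied fragments covers counting error alone, not the difference between cultures. This interval lay above 1 for 11 and below 1 for 5 of the 26 collagen genes for which it could be computed, against 8.73% and 9.92% of all genes. Since the interval narrows as implied fragments rise, these shares also depend on the length and level of the genes.

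The LGR4-/- clones were compared with the same control library, so that both comparisons share it. A collagen gene was called where both clones differed from control by at least 2-fold in the same direction. COL5A1, COL5A2, COL9A2 and COL23A1 were lower by this rule, where 1.08% of all genes were. No collagen gene was higher by it, where 0.236% of all genes were. At 1.5-fold, COL13A1 joined these 4 genes, against 3.09% of all genes, and COL9A1 and COL14A1 were higher, against 2.61%. The median difference over the 27 genes was -0.095 in clone 1 and -0.059 in clone 2, against 0.023 and 0.016 over all genes, and 14 collagen genes were lower and 9 higher in both clones, where 35.5% of all genes were lower and 42.5% higher. With limma, which took the spread from the 2 clones and assumed that the lone control varies like them, no collagen gene and 0% of all genes had an adjusted p below 0.05 (Benjamini-Hochberg). At an unadjusted p below 0.05, 10 collagen genes were lower and 3 were higher, against 8.1% and 10.3% of all genes. Both clones lay below both wild type libraries for 13 collagen genes, against 27.6% of all genes, and above both for 5, against 34.4%. The plot of differences gives both comparisons.

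**Figure D2:**
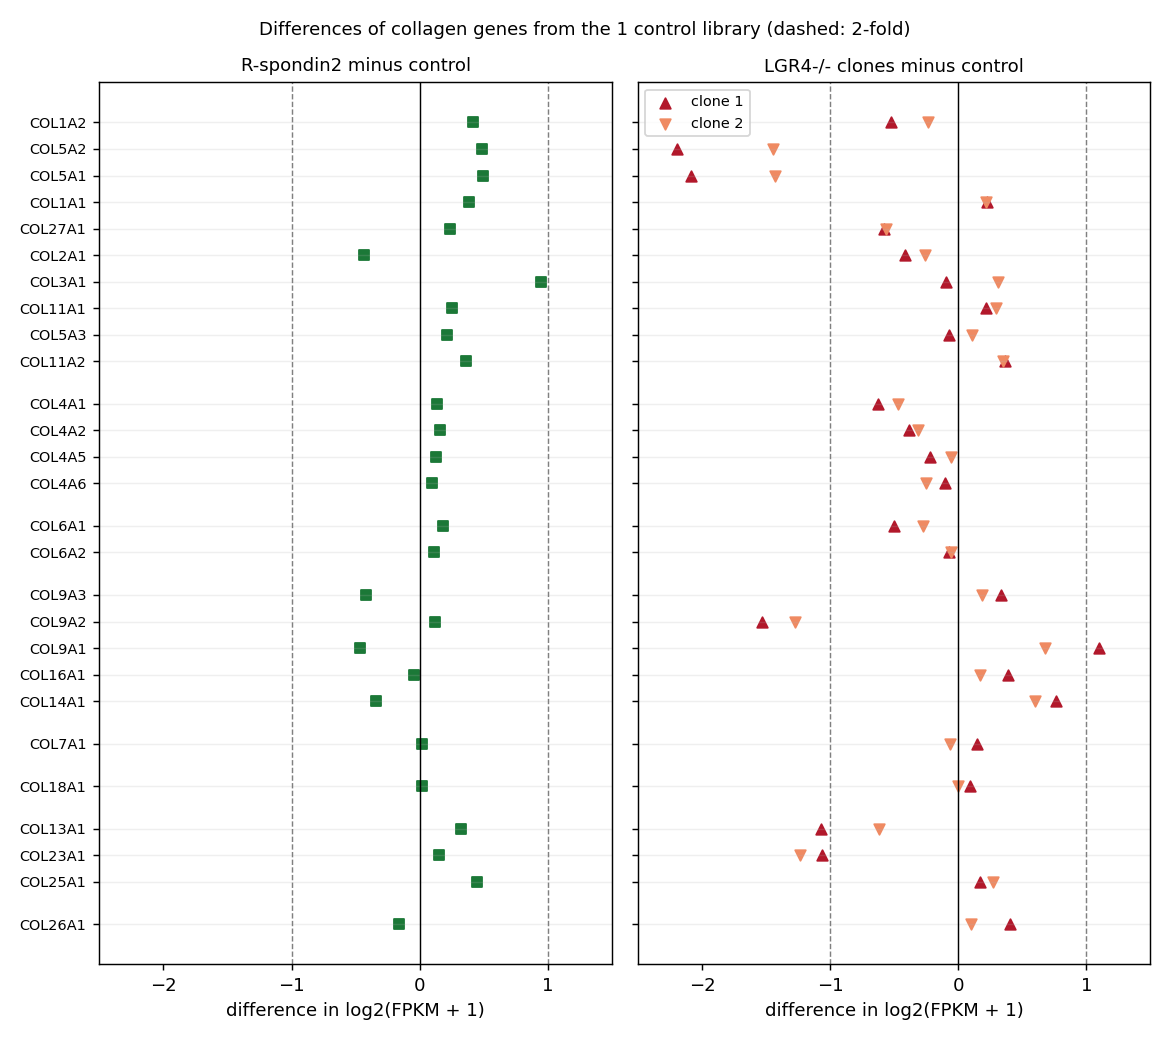
Difference from control in log2(FPKM + 1) (horizontal) of the 27 collagen genes (vertical), for R-spondin2 on the left and for each LGR4-/- clone on the right, 1 library per point; dashed lines mark 2-fold. COL3A1 stands farthest to the right with R-spondin2 (0.94), and COL5A1, COL5A2, COL9A2 and COL23A1 lie left of -1 for both clones.

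Type V collagen is a minor part of mixed fibers with type I and is known to help start them. Its chain gene COL5A1 (chr9:134641774-134844843, plus strand, GRCh38) was listed at 91.25 FPKM in control, 128.79 with R-spondin2, 20.69 in clone 1 and 33.28 in clone 2. COL5A2 (chr2:189031896-189225312, minus strand) was listed at 96.49, 135.31, 20.33 and 34.89 FPKM. Both wild type libraries were far above both clones for either gene. The mean difference of the clones from control was -1.76 ± 0.27 (SE) for COL5A1, with an adjusted p of 0.0863 by limma. For COL5A2 it was -1.82 ± 0.30, with an adjusted p of 0.0886. With R-spondin2 the FPKM ratio to control was 1.41 (interval 1.37 to 1.46) for COL5A1 and 1.40 (1.36 to 1.45) for COL5A2. The clones differed from each other as well. COL5A1 was 1.61-fold (1.51 to 1.72) and COL5A2 1.72-fold (1.60 to 1.84) higher in clone 2 than in clone 1, and these were the only collagen genes past 1.5-fold upwards on the log2(FPKM + 1) scale between the clones, against 1.35% of all genes. None was past it downwards, against 1.06%. The ratio of COL5A1 to COL5A2 stayed between 0.946 and 1.02 in the 4 libraries, although the genes lie on different chromosomes. COL5A3, a chain that can take the place of others in type V, was at 1.55, 1.96, 1.43 and 1.74 FPKM, and its interval with R-spondin2 included 1.

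Type I collagen, the main fiber of skin, tendon and bone, has chains from COL1A1 and COL1A2. COL1A1 was listed at 63.96 FPKM in control, 83.60 with R-spondin2, 74.76 in clone 1 and 74.61 in clone 2. COL1A2 was listed at 114.67, 152.96, 79.41 and 97.43 FPKM. Both genes were highest with R-spondin2, and in the clones they lay on opposite sides of control. The mean difference of the clones was 0.22 ± 0.075 (SE) for COL1A1 and -0.38 ± 0.13 for COL1A2, with adjusted p of 0.219 and 0.229 by limma. The ratio of COL1A2 to COL1A1 was 1.79 in control, 1.83 with R-spondin2, 1.06 in clone 1 and 1.31 in clone 2. In the protein of type I, chains of COL1A1 outnumber those of COL1A2, whereas the RNA of COL1A2 was above that of COL1A1 per length in each library.

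COL3A1, whose product makes fibers with type I in soft tissues and vessels, was listed at 4.65 FPKM in control, 9.86 with R-spondin2, 4.29 in clone 1 and 6.0 in clone 2. The R-spondin2 library was the highest. Clone 2 was above control, with a ratio of 1.29 (interval 1.08 to 1.54), and above clone 1, with a ratio of 1.40 (1.17 to 1.68). Its ratio to control was 2.12 (interval 1.81 to 2.49) in FPKM, and its difference was 0.94 on the log2(FPKM + 1) scale, just short of 2-fold. The clones lay on either side of control, at -0.10 and 0.31, with an adjusted p of 0.835 by limma. COL3A1 (chr2:188974320-189012746, plus strand) and COL5A2 lie next to each other, in opposite directions. The ratio of COL5A2 to COL3A1 was 20.8 in control, 13.7 with R-spondin2, 4.74 in clone 1 and 5.81 in clone 2.

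The fibrillar genes known from cartilage differed in direction. COL2A1, the main collagen of cartilage, was listed at 7.48 FPKM in control, 5.27 with R-spondin2, 5.36 in clone 1 and 6.07 in clone 2, and control was above all 3 other libraries. It was the only one of 10 fibrillar genes past the filter that was lower with R-spondin2, with a ratio of 0.707 (interval 0.588 to 0.847). The adjusted p in the clones was 0.314 by limma. COL11A1 and COL11A2, chains of type XI that join type II in cartilage, were at 1.80, 2.34, 2.25 and 2.43 FPKM and at 0.65, 1.12, 1.13 and 1.10 FPKM. Control was lowest for both, but their intervals with R-spondin2, 0.979 to 1.75 and 0.638 to 5.27, included 1. In the clones the interval excluded 1 only for COL11A1 in clone 2 (1.02 to 1.82). COL11A2 rested on 7 implied fragments in control and 12 in each other library. COL11A2 had a mean of 1.00 FPKM and was the last gene kept, while COL22A1 at 0.955 was the next one left out. COL27A1, a fibrillar collagen of developing cartilage, was listed at 20.96 FPKM in control, 24.82 with R-spondin2, 13.68 in clone 1 and 13.82 in clone 2. Here the clones were almost the same, at 13.75 ± 0.099 FPKM (SD, n = 2), and both lay below both wild type libraries. The mean difference was -0.57 ± 0.11 (SE), with an adjusted p of 0.0930 by limma. COL24A1 did not exceed 0.14 FPKM.

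Over the fibrillar list, 9 of the 10 genes past the filter were higher with R-spondin2 (47.8% of all genes), with a median of 0.37. The interval included 1 for COL5A3, COL11A1 and COL11A2, and COL1A1 had none. In the clones 5 were lower (35.5% of all genes) and 3 higher (42.5%) in both, with medians of -0.26 and -0.065. These counts in the clones are near the shares over all genes.

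Type IV chains form the net of the basement membrane, and their 6 genes lie in head-to-head pairs. COL4A1 was listed at 50.48 FPKM in control, 55.60 with R-spondin2, 32.39 in clone 1 and 36.11 in clone 2. COL4A2, its partner in the helix found in nearly all basement membranes, was listed at 41.62, 46.49, 31.69 and 33.23 FPKM. Both clones were below both wild type libraries for either gene. The mean difference of the clones was -0.55 ± 0.10 (SE) for COL4A1, with an adjusted p of 0.0937, and -0.35 ± 0.091 for COL4A2, with an adjusted p of 0.143 (limma). With R-spondin2 the ratios were 1.10 (interval 1.02 to 1.19) and 1.12 (1.06 to 1.18). The ratio of COL4A1 to COL4A2 was 1.21 and 1.20 in the wild type libraries and 1.02 and 1.09 in clones 1 and 2.

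COL4A5 and COL4A6, which make other type IV nets and start 379 bases apart on the X chromosome, were at 8.49, 9.38, 7.14 and 8.11 FPKM and at 4.78, 5.18, 4.38 and 3.85 FPKM. Their intervals with R-spondin2 included 1, and their adjusted p in the clones were 0.665 and 0.617 by limma. COL4A3 and COL4A4, which start 418 bases apart and are known from the filter of the kidney, stayed at or below 0.11 and 0.20 FPKM. All 4 type IV genes past the filter were higher with R-spondin2 (47.8% of all genes), with a median of 0.13, although the interval excluded 1 only for COL4A1 and COL4A2. All 4 were lower in both clones (35.5% of all genes), with medians of -0.30 and -0.28. None of these differences reached 2-fold. The plot of partner chains sets types I, IV, V, VI and IX side by side.

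**Figure D3:**
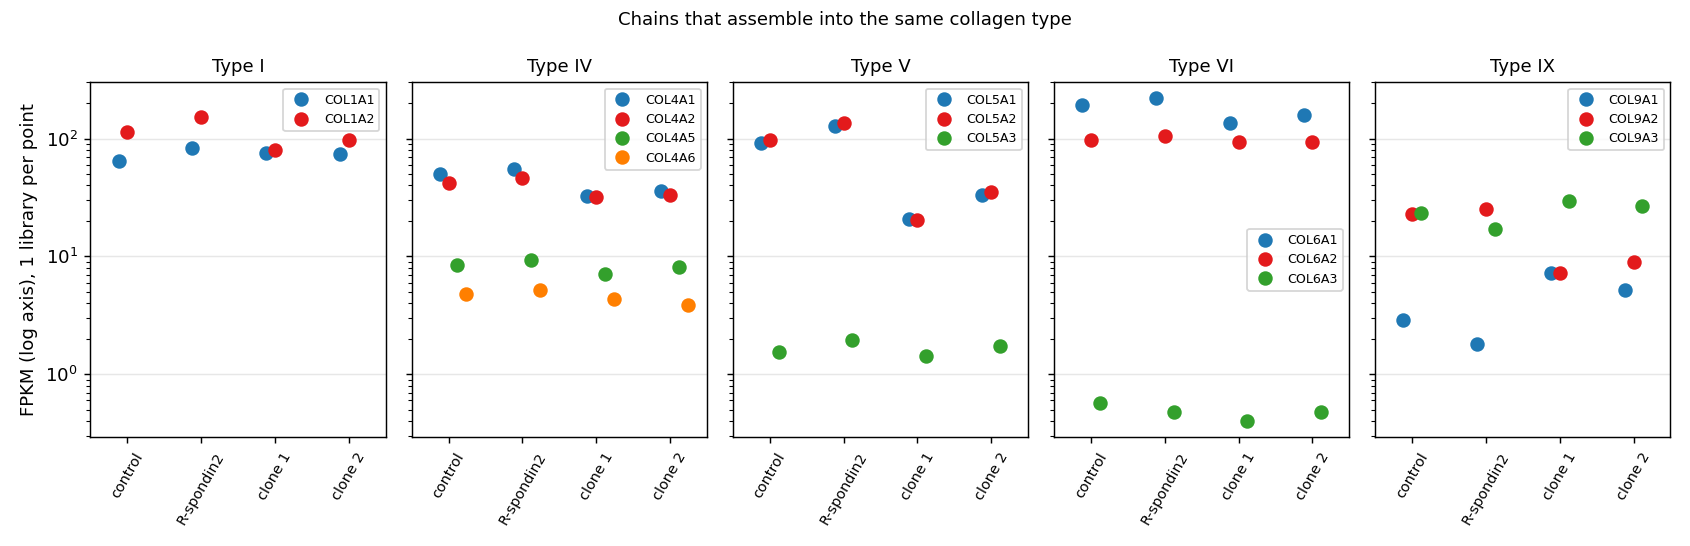
FPKM on a log axis (vertical) of genes whose chains join in the same collagen type, across the 4 libraries (horizontal), 1 library per point. COL5A1 and COL5A2 lie at nearly the same height in every library (points of different genes are shifted sideways only to keep them apart), COL6A3 stays below 1 FPKM under its partners, and COL9A2 lies near COL9A1 in the clones, where COL9A3 lies above both.

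Type VI collagen makes beaded filaments near cells and is usually built from the chains of COL6A1, COL6A2 and a long chain such as that of COL6A3. COL6A1 was the highest collagen gene in each library, at 192.38 FPKM in control, 218.93 with R-spondin2, 135.45 in clone 1 and 158.69 in clone 2. COL6A2 was listed at 97.71, 105.77, 92.73 and 93.91 FPKM. COL6A3 was listed at 0.57, 0.48, 0.40 and 0.48 FPKM, so that COL6A1 stood 331 to 456 times above it. The other long chains, COL6A5 (0.02 to 0.31 FPKM) and COL6A6 (0.52, 0.81, 0.12 and 0.22 FPKM), did not pass the filter either. The interval of COL6A6 was above 1 with R-spondin2 (1.07 to 2.37) and below 1 in clone 1 (0.102 to 0.459) and clone 2 (0.241 to 0.765). For COL6A5 it excluded 1 only in clone 1 (0.0132 to 0.496). The mean difference of the clones from control was -0.39 ± 0.11 (SE) for COL6A1, with an adjusted p of 0.157, and -0.066 ± 0.072 for COL6A2, with an adjusted p of 0.690 (limma). The ratio of COL6A1 to COL6A2 was 1.97 and 2.07 in the wild type libraries and 1.46 and 1.69 in clones 1 and 2.

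The 3 chain genes of type IX, which decorates type II fibers in cartilage, differed in direction. COL9A2 (chr1:40300487-40317813, minus strand) was listed at 22.94 FPKM in control, 25.01 with R-spondin2, 7.30 in clone 1 and 8.89 in clone 2. COL9A1 was listed at 2.86, 1.80, 7.27 and 5.17 FPKM. COL9A3 was listed at 23.31, 17.17, 29.58 and 26.65 FPKM. For COL9A2 both clones were below both wild type libraries, and for COL9A1 and COL9A3 both were above. The mean difference of the clones was -1.40 ± 0.15 (SE) for COL9A2, with an adjusted p of 0.0732, which was the lowest of the collagen genes. For COL9A1 it was 0.89 ± 0.22 with an adjusted p of 0.127, and for COL9A3 it was 0.26 ± 0.11 with an adjusted p of 0.301 (limma). The ratio of COL9A2 to COL9A1 was 8.02 in control, 13.9 with R-spondin2, 1.00 in clone 1 and 1.72 in clone 2. With R-spondin2, COL9A1 and COL9A3 had ratios to control of 0.631 (interval 0.431 to 0.915) and 0.736 (0.642 to 0.842), while the interval of COL9A2 (0.972 to 1.22) included 1.

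Among the other FACIT genes, COL14A1, whose product binds type I fibers, was listed at 1.84 FPKM in control, 1.24 with R-spondin2, 3.81 in clone 1 and 3.31 in clone 2. Both clones were above both wild type libraries, with a mean difference of 0.68 ± 0.17 (SE) and an adjusted p of 0.135 by limma. COL16A1 was listed at 2.77, 2.66, 3.94 and 3.23 FPKM, and the clones were again the higher ones. Its ratio with R-spondin2 was 0.960, with an interval (0.752 to 1.23) that included 1. Of the 5 FACIT genes past the filter, 4 were lower with R-spondin2 (51.9% of all genes), with a median of -0.34, and 4 were higher in both clones (42.5% of all genes), with COL9A2 the exception in both cases. The filter kept 5 of 10 FACIT genes. The others were COL12A1 (0.57 to 1.05 FPKM), COL19A1 (0.00 to 0.04), COL20A1 (0.03 to 0.48), COL21A1 (0.24 to 0.78) and COL22A1 (0.85 to 1.10). Of these, COL20A1 was lower with R-spondin2 and the rest were higher. The interval of COL12A1 was above 1 with R-spondin2 (1.07 to 2.78) and in clone 2 (1.15 to 2.95). For COL20A1 it was below 1 with R-spondin2 (0.00217 to 0.641), and for COL21A1 it was above 1 in clone 2 (1.45 to 7.59).

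Transmembrane collagens are type II membrane proteins whose outer part can be shed. COL23A1 (chr5:178237618-178590555, minus strand) was listed at 7.21 FPKM in control, 8.11 with R-spondin2, 2.92 in clone 1 and 2.49 in clone 2. COL13A1, found at sites of cell adhesion and at the nerve-muscle junction, was listed at 20.64, 26.04, 9.29 and 13.12 FPKM. Wild type libraries and clones did not overlap for either gene. The mean difference of the clones was -1.15 ± 0.16 (SE) for COL23A1, with an adjusted p of 0.0829, and -0.84 ± 0.21 for COL13A1, with an adjusted p of 0.129 (limma). COL13A1 was past 2-fold in clone 1 (-1.07) and not in clone 2 (-0.62). With R-spondin2 its ratio to control was 1.26 (interval 1.09 to 1.46), and that of COL23A1 was 1.12 (0.922 to 1.37). COL25A1, known from the brain and from motor nerve growth, was at 1.07, 1.82, 1.33 and 1.5 FPKM, with control lowest. COL17A1, a collagen of skin anchoring, was between 0.12 and 0.45 FPKM.

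COL18A1, a multiplexin of basement membranes whose end fragment is endostatin, was listed at 125.39 FPKM in control, 127.16 with R-spondin2, 133.42 in clone 1 and 125.12 in clone 2, and hardly differed between the libraries. Its ratio with R-spondin2 was 1.01 (interval 0.978 to 1.05), and its adjusted p in the clones was 0.816 by limma. It made 11.9% of the collagen sum of control together with COL15A1, the other multiplexin (0.06 to 0.12 FPKM), and 16.95% in clone 1, where the sum was lower. COL7A1, which makes the anchoring fibrils under the skin, was at 3.61, 3.68, 4.10 and 3.41 FPKM. COL26A1 was at 39.21, 35.05, 52.15 and 42.17 FPKM, with both clones above both wild type libraries, a ratio with R-spondin2 of 0.894 (interval 0.817 to 0.978) and an adjusted p in the clones of 0.426 by limma.

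The remaining genes were near the floor. The short-chain network genes COL8A1 (0.18 to 0.41 FPKM), COL8A2 (0.13 to 0.58) and COL10A1 (0.03 to 0.17), the latter a marker of cartilage that turns to bone, did not pass the filter. COL28A1 was listed at 0 in control and clone 1 and at 0.19 and 0.13 FPKM in the R-spondin2 library and in clone 2. At this depth and 2 decimals, differences among these genes could not be detected.

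Collagen chains need enzymes and chaperones before they leave the cell. Of 17 such folding and modification genes past the filter, 15 were higher with R-spondin2 (median 0.11), against 47.8% of all genes. In both clones 13 were lower and 2 higher, against 35.5% and 42.5% of all genes. The highest were PPIB, a prolyl isomerase, SERPINH1, the chaperone of procollagen, and P4HB, a subunit of prolyl hydroxylase. SERPINH1 was listed at 338.67 FPKM in control, 391.46 with R-spondin2, 299.27 in clone 1 and 323.50 in clone 2, and PPIB stayed between 379.29 and 432.66 FPKM and P4HB between 218.77 and 265.57 FPKM. P3H2, which adds hydroxyl groups to prolines and is known to act on type IV collagen, was the only gene of the list past 1.5-fold in both clones. It was lower, as 3.09% of all genes were by that much. It was listed at 122.77 FPKM in control, 156.10 with R-spondin2, 43.17 in clone 1 and 56.99 in clone 2, with differences of -1.49 and -1.09 and an adjusted p of 0.0785 by limma. PLOD2, a lysyl hydroxylase, was past 1.5-fold in clone 1 (-0.97) and not in clone 2 (-0.50).

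Of the 7 genes for export and propeptide cleavage past the filter, 6 were higher with R-spondin2 (47.8% of all genes). In both clones 3 were lower (35.5% of all genes) and 2 higher (42.5%), with none past 1.5-fold in both. The highest were PCOLCE, which speeds removal of the end of procollagen, at 21.69, 20.18, 28.54 and 26.89 FPKM, MIA3, which loads procollagen into carriers, at 10.59 to 12.13 FPKM, and PCOLCE2, at 5.59 to 6.95 FPKM. Genes for cross-linking were flat. PXDN, which links type IV chains, was at 54.24, 59.22, 50.53 and 54.27 FPKM, LOXL2 at 14.31 to 16.07 and LOXL3 at 7.44 to 8.34, and the 5 genes past the filter lay between -0.15 and 0.0065 in the clones.

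Among 7 receptor genes past the filter, ITGB1, the beta chain of collagen-binding integrins, was at 102.38 to 135.48 FPKM and DDR1, a receptor kinase for collagen, was at 54.82 to 73.17 FPKM. MRC2, a receptor that takes up collagen, was listed at 32.73 FPKM in control, 39.96 with R-spondin2, 17.89 in clone 1 and 20.51 in clone 2, with an adjusted p of 0.0882 by limma. DDR2, another receptor kinase for fibrillar collagen, was at 1.82, 1.69, 0.59 and 0.82 FPKM with an adjusted p of 0.159. These were the receptor genes past 1.5-fold in both clones, and both were lower, where 3.09% of all genes were. Of the 7 receptor genes, 3 were lower in both clones (35.5% of all genes) and 2, DDR1 and GP6, were higher (42.5%).

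Of 4 breakdown genes past the filter, MMP14, a membrane protease that cuts fibrillar collagen, was listed at 98.48, 126.66, 51.41 and 61.70 FPKM, with an adjusted p of 0.0882 by limma. MMP2, which MMP14 activates, was at 66.61, 78.91, 32.75 and 45.15 FPKM, and CTSK stayed between 1.78 and 2.68 FPKM. Of the 4 genes, 2 were lower in both clones (35.5% of all genes) and 1, MMP9, was slightly higher (42.5%). Only MMP14 was past 1.5-fold in both, where 3.09% of all genes were lower by that much. The plot of these lists shows every gene past the filter.

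**Figure D4:**
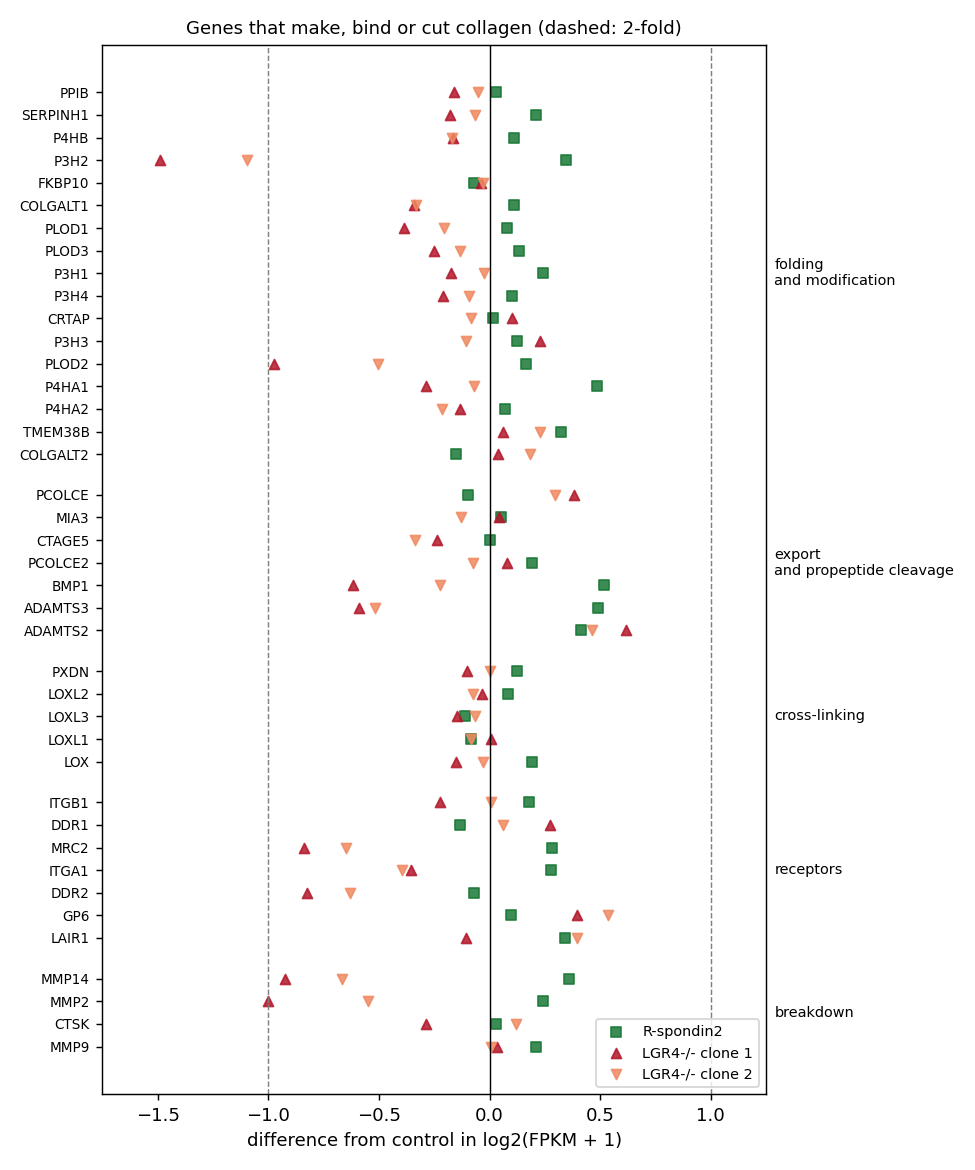
Difference from control in log2(FPKM + 1) (horizontal) of genes of 5 lists that fold, export, cross-link, bind or cut collagen (vertical), for R-spondin2 and each LGR4-/- clone, 1 library per point; dashed lines mark 2-fold. P3H2 is the only gene left of -1 for both clones, and the cross-linking genes lie near 0.

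Matrix proteins that sit with these collagens were read as well. HAPLN1, a link protein of cartilage matrix, was listed at 61.52 FPKM in control, 83.04 with R-spondin2, 4.99 in clone 1 and 14.30 in clone 2, with an adjusted p of 0.0962 by limma. MATN3, a matrilin that binds type IX collagen, was at 14.82, 16.85, 8.95 and 8.56 FPKM, with an adjusted p of 0.0886. SOX9, the factor that turns on cartilage collagens, was at 2.57, 1.95, 4.22 and 2.81 FPKM. These were the 3 of 8 cartilage matrix partners that passed the filter. The others, SOX5, SOX6, ACAN, MATN1 and COMP, did not exceed 0.90 FPKM. HAPLN1 and MATN3 were lower in both clones and past 1.5-fold, where 3.09% of all genes were. COL9A2 was lower as well, while COL9A1 and COL9A3 were higher. For SOX9 the ratio to control was 1.65 (interval 1.26 to 2.16) in clone 1 and 1.09 (0.811 to 1.47) in clone 2. Any part of SOX9 in these levels was not tested. SPARC, which binds collagen in the basement membrane, was listed at 186.78, 231.31, 97.36 and 125.26 FPKM, and it was the only one of 8 basement membrane partners past 1.5-fold in clone 1. AGRN was at 52.79, 45.00, 70.75 and 59.63 FPKM, and LAMB1, a laminin chain, stayed between 30.66 and 34.56 FPKM. Of these 8 basement membrane partners, 5 were higher and 2 were lower in both clones, against 42.5% and 35.5% of all genes.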

How the data were processed

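RNA-SEQ was measured in 4 libraries. The authors deposited FPKM to 2 decimals, without read counts. The submitters' processing notes name BWA, Bowtie, RSEM and hg19; which tool did what is not given in the sources used here, and versions are not given. FPKM already holds the authors' scaling for length and depth, so no count model was used. Levels were compared as log2(FPKM + 1), after the log10 scale named in the methods of the study, keeping the 12697 genes that averaged 1 FPKM or more. A fold change on this scale understates that of low genes. LGR4-/- was tested with limma 3.58.1 (R 4.3.3, with a variance trend) on control and the 2 clones, with 1 residual degree of freedom, Benjamini-Hochberg over all genes and a threshold of 0.05.

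Depth was estimated from FPKM below 0.6 of transcripts shorter than 1500 bases: 76.04% to 78.25% of these values lay within 0.2 of a whole fragment, against 31.34% to 38.72% with lengths shuffled among genes. Ratio intervals (95%, Clopper-Pearson) take the shortest RefSeq transcript with a GENCODE 29 length, need at least 10 implied fragments in the pair, and cover counting error only. COL1A1 had no such length. Gene coordinates are those of GENCODE 29 and promoters those of RefSeq, both on GRCh38, and not of the authors' files. Scripts ran in Python 3.11.15 (numpy 2.4.6, pandas 2.3.3, scipy 1.17.1) and were tested on simulated data.

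Every collagen gene is accounted for; of the lists of genes that act with collagens, those past 1.5-fold with R-spondin2 or in both clones and the 3 highest of each list are named, while cell type markers are given as lists. The collagen genes and all lists were chosen with earlier results of these data known. Alternatives were a pseudocount of 0.1, no filter, a filter of 5 FPKM, median-ratio scaling, a fold of 1.5, no variance trend, both wild type libraries as 1 group, and each clone left out.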

Additional observations from a re-analysis of the deposited data

How the results depend on the processing

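COL5A1, COL5A2, COL9A2 and COL23A1 were at least 2-fold lower in each clone used under every pseudocount, filter, scaling and left-out clone tried. They were chosen because both clones were past 2-fold, so leaving out a clone could not change this. A filter can drop a gene but does not alter its values, and a smaller pseudocount can only widen a difference. Of these settings, only the scaling could bring a difference back under 2-fold. With a pseudocount of 0.1, 1 collagen gene (COL3A1) was past 2-fold with R-spondin2. With no filter the collagen medians were 0.12 for R-spondin2, 0.023 for the clones, where the direction turned from -0.066, and 0.023 for clone 2 against clone 1 (0.066 with the filter). With a filter of 5 FPKM they were -0.36 for the clones and 0.15 for clone 2 against clone 1, so the collagen median of the clones depends on how many low genes enter. At 1.5-fold, 1 gene was higher with R-spondin2, 2 in both clones and 2 in clone 2 against clone 1. Without clone 1 or clone 2 the median was -0.059 to -0.095, with 4 to 5 genes lower and 0 to 1 higher; without clone 2 the gene that was higher is COL9A1 and the added lower gene is COL13A1.

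With limma, the count of collagen genes with an adjusted p below 0.05 depended on the fit. It was 0 on the control and both clones, 0 with a pseudocount of 0.1, with no filter and without the variance trend, 1 lower (COL9A2) with median-ratio scaling, 7 lower with a filter of 5 FPKM, and 10 lower and 2 higher with both wild type libraries as 1 group. Without 1 clone, against both wild type libraries, 7 to 10 were lower and 0 to 3 higher; the lone clone is then assumed to vary like the wild type libraries, which differ in treatment. Over these fits the adjusted p ranged from 0.00182 to 0.383 for COL5A2 and from 0.00182 to 0.34 for COL9A2. Over all genes the limma fit on control and both clones called 0 of 12697, with 2342 at an unadjusted p below 0.05. A pseudocount of 0.1, no filter and no variance trend also called 0. Median-ratio scaling called 44 higher and 48 lower of 12697, and the filter of 5 FPKM called 266 and 274 of 9029. With both wild type libraries as 1 group, 1015 were higher and 847 lower of 12697. No paired analysis was possible because the groups share fewer than 2 replicate numbers. Precision is limited by 1 library each of control and R-spondin2, and below about 1 FPKM by the fragments behind a value.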

Other observations

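Other genes with a collagen-like stretch or a collagen-binding role were read after their values had been seen, so the choice supports nothing. COLEC12, a collectin with a collagen-like stalk on the cell surface, was listed at 48.34 FPKM in control, 67.44 with R-spondin2, 8.79 in clone 1 and 16.57 in clone 2, with an adjusted p of 0.0906 by limma. EMILIN2, a glycoprotein of elastic fibers, was listed at 11.16, 13.25, 4.03 and 4.63 FPKM, with an adjusted p of 0.0785. Both were at least 2-fold lower in both clones, where 1.08% of all genes were. C1QTNF6, with a collagen-like stretch, was at 8.58, 9.59, 4.07 and 6.18 FPKM, lower in both clones but not 2-fold in either on the log2(FPKM + 1) scale. Other genes of these families did not reach 2-fold in both clones: EMILIN1 was at 8.14, 8.97, 6.74 and 4.77 FPKM, EMILIN3 at 2.17 to 2.76, SCARA3 at 6.35 to 7.40, and EDA, a ligand with a short collagen domain, at 2.47 to 2.73 FPKM. Nor did CTHRC1 (1.09 to 1.94 FPKM), COLQ (0.86 to 1.05), C1QL1 (1.90 to 3.68) or C1QTNF4 (2.15 to 2.90).

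CXCL12, read here as a stromal marker, was at 19.35 FPKM in control, 17.69 with R-spondin2, 43.06 in clone 1 and 36.30 in clone 2.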
